A study of Mus musculus with 18 samples.

Results

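Hearts from 1 mouse line fell into 2 sets that differed in their level of transcripts known from atrial muscle, and each treatment group contained both kinds. The sets were selected on a measured value: the 9 hearts were split by the level on array 430A of Sln, which encodes the atrial calcium pump regulator sarcolipin. Levels are given as log2(signal + 32), where signal is the deposited array intensity. The 4 hearts above 12 on this scale are called Sln-high and the other 5 are called Sln-low. The Sln-high hearts were before-AAC replicates 2 and 3, the 4-week replicate 1 and the Akt-on replicate 1. Just inside the limit lay before-AAC replicate 3 at 12.91, and just outside it lay Akt-on replicate 3 at 9.30, so no heart lay near 12.

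All mice were males of the Tet-myrAkt1/αMHC-tTA line. Here myrAkt1, a membrane-bound active form of the kinase Akt1, stands under a tetracycline-regulated promoter, and the αMHC promoter drives its activator tTA in heart muscle cells. The before-AAC group held 3 hearts from mice of 8 weeks with no pressure overload. The 4-week group held 3 hearts, labelled 12 weeks of age, taken 4 weeks after AAC, the operation by which the study produced pressure overload. The Akt-on group held 3 hearts taken 6 weeks after AAC with Akt switched on, for 3 weeks by the titles and 2 weeks by the descriptions, and its age label is also 12 weeks. Each heart was hybridised to both arrays of the Affymetrix mouse 430 set, which gave 18 arrays. The labels call the tissue heart and do not say which chambers were taken or whether animals were pooled, while 4-week replicate 3 is numbered 1 in its description.

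Adult mouse atria and ventricles are built from the same sarcomere plan with different parts. Atrial myocytes use the myosin light chains Myl7 and Myl4 in place of the ventricular Myl2 and Myl3. They restrain the calcium pump with sarcolipin, where ventricular myocytes use phospholamban (Pln). They also store atrial natriuretic peptide (Nppa) in granules. Ventricles re-express Nppa, and to some extent Myl4 and Myl7, under load. Fat, mesothelium, valves, great vessels and nodal tissue lie on or beside the atria.

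The hearts resembled each other over all genes. Within a group, the correlation between hearts ran from 0.963 to 0.979 on array 430A and from 0.915 to 0.953 on 430B. The β-actin ratio of 3′ over 5′ probe set signal, a sign of RNA integrity, ran from 1.21 to 2.04 in Sln-high and from 1.04 to 1.49 in Sln-low hearts. It was higher in the Sln-high heart in 5 of the 6 within-group pairs, where a pair is an Sln-high and an Sln-low heart of one treatment group. The Gapdh ratio was higher in 4 of 6 pairs. The level of Akt1, the gene that the labels say was switched on, was 11.37, 11.89 and 12.68 in the 3 Akt-on hearts and between 8.70 and 9.89 in the other 6.

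The 3 transcripts that mark the split varied together. Sln was 5.84, 14.21 and 12.91 in before-AAC replicates 1, 2 and 3, then 13.49, 8.56 and 5.18 at 4 weeks, and 13.50, 5.49 and 9.30 with Akt on. In deposited signal, that is 7645 to 18879 in the Sln-high hearts against 4.2 to 599.6 in the others. Myl7, the atrial regulatory light chain, was 8.33, 13.99 and 12.84 before AAC, 13.85, 9.57 and 6.05 at 4 weeks, and 13.89, 7.00 and 10.03 with Akt on. Myl4, the atrial essential light chain, was 8.84, 14.37 and 13.38, then 14.07, 10.30 and 8.07, and 14.22, 9.61 and 11.90. For all 3 transcripts the 4 Sln-high hearts lay above the 5 others without overlap. The 4-week replicate 2 and Akt-on replicate 3 were intermediate. They lay below the Sln-high hearts but above the other 3 in all 3 transcripts, and Akt-on replicate 3 joined the high side when the hearts were split at the widest gap of Myl4. The widest gap of Myl7 gave the same 4 hearts as Sln.

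Estimated with treatment group as a covariate, the Sln-high minus Sln-low difference on the log2 scale was 6.82 ± 0.82 for Sln (moderated standard error from limma, 4 against 5 hearts), 5.50 ± 0.73 for Myl7 and 4.46 ± 0.55 for Myl4. These 3 are the transcripts that the split was made with or named for, so their differences are a description. The same holds for every other Sln-high minus Sln-low difference given here, since the same arrays chose the hearts, and no p-value is attached to any of them. In RNA from whole tissue, differences in the number of atrial cells, in atrial RNA per cell and in expression of these transcripts by ventricular cells cannot be told apart.

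**Figure D1:**
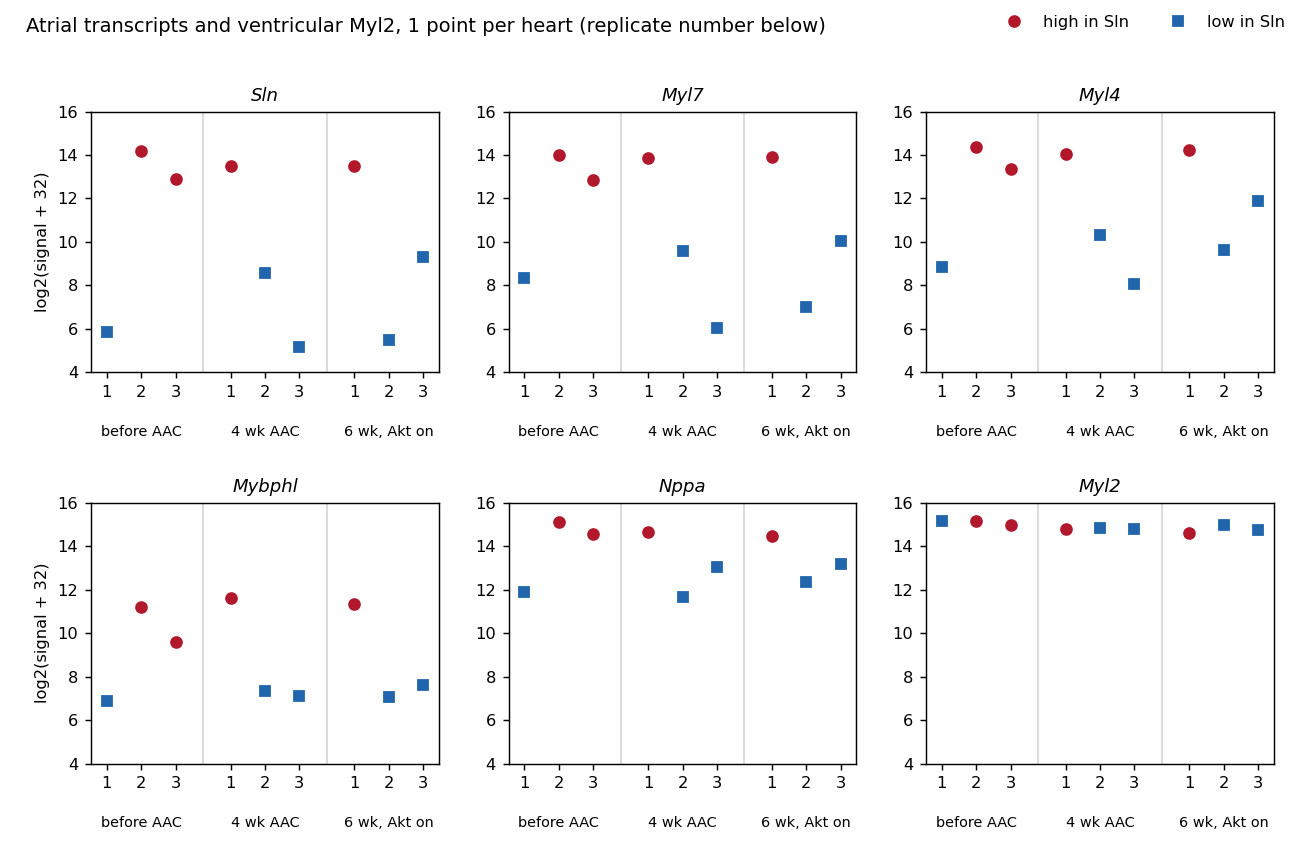
Levels of 5 atrial transcripts and of the ventricular light chain Myl2 in each of the 9 hearts, as log2(signal + 32); red circles are Sln-high hearts, blue squares are Sln-low hearts, and the number under each point is the replicate. In the 5 atrial panels the 4 red points lie above all blue points, while Myl2 stays between 14.61 and 15.16 in all 9 hearts.

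The bases before the start of Myl7 and of 2 further atrial genes, Nppa and Mybphl, are shown because their transcripts varied together across the hearts and their windows hold motif matches. The window of Myl4, whose transcript varied with them, held 0 matches to the 4 motifs named next and is not shown. The sequences are from RefSeq on GRCm38.p6, the 250 bases before the annotated start, 5′ to 3′ on the gene's strand. They are Myl7 at chr11:5898783-5899032 (minus strand), Nppa at chr4:148000472-148000721 (plus strand) and Mybphl at chr3:108364661-108364910 (plus strand). Capitals mark matches, on either strand, to 4 motifs of heart transcription factors: the GATA motif GATAA, the T-box motif GGTGTGA, the Nkx2-5 element TNAAGTG and the CArG box of serum response factor. The matches do not overlap.
Myl7: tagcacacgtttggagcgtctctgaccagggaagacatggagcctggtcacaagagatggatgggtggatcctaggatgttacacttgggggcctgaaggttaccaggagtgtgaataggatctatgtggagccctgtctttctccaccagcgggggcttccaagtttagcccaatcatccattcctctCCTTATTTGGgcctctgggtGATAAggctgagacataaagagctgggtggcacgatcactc
Nppa: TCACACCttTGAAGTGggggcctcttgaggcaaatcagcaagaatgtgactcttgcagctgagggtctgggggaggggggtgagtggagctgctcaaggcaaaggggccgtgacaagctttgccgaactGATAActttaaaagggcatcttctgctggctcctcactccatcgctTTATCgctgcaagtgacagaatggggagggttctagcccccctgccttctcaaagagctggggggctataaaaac
Mybphl: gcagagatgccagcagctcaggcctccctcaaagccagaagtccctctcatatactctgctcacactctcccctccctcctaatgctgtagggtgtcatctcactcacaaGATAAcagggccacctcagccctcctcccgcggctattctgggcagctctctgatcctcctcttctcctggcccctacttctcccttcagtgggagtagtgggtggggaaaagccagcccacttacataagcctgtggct

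Myl7 held a CArG box (CCTTATTTGG) that began 61 bases before the start and a GATAA that began 41 bases before it. Nppa held a GATAA on each strand, which began 121 and 75 bases before the start, a T-box match at 250 and an Nkx2-5 element at 241. Mybphl held 1 GATAA, 140 bases before the start. Of 32851 mouse promoter windows of this length, 22.6% held GATAA, 3.33% the T-box motif, 10.1% the Nkx2-5 element and 1.47% a CArG box. Among the 30 genes that were higher in Sln-high hearts by the rule given next and had an entry, 10 held GATAA, 2 the T-box motif, 5 the Nkx2-5 element and 3 a CArG box (Myl7, Myl9 and Tmem163). A match describes letters only and is no evidence that a factor binds there.

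Over all genes the 2 sets of hearts were close. Of 12834 genes measured, 39 (0.304%) were higher in the Sln-high heart in all 6 within-group pairs by at least 1 on the log2 scale, and 8 (0.0623%) were lower by the same rule. The 6 pairs share hearts and are not independent. Without the size limit, 879 genes (6.85%) were higher and 661 (5.15%) lower in all 6 pairs. The median difference over all genes was 0.016 and the median standard error 0.155. Of the 39 higher genes, 30 had all 4 Sln-high hearts above all 5 Sln-low hearts, as had 207 genes (1.61%) of all measured. Of the 8 lower genes, 1 had all Sln-high hearts below all Sln-low hearts, as had 92 genes (0.717%) of all measured. The rule already asks for all 6 within-group pairs one way, so this separation is partly built in and is not added support. Array 430A gave 30 of the 39 and 3 of the 8, and 430B the rest.

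The 39 genes varied between the Sln-high hearts. Before-AAC replicate 3, which also had the lowest Sln of the 4, was the lowest of the 4 in 27 genes and the highest in 2. Akt-on replicate 1 was the highest in 16 and before-AAC replicate 2 in 14. Among the Sln-low hearts, Akt-on replicate 3 was the highest in 15 of the 39. The number of genes that meet the rule was 65 higher and 39 lower without before-AAC replicate 1, 57 and 38 without 4-week replicate 1, and 52 and 22 without the 2 intermediate hearts. Each of these settings leaves 4 pairs in place of 6, and a rule over fewer pairs is easier to meet. With the β-actin ratio as a further covariate it was 63 and 38, and 39 of the 47 genes were among them. With that covariate the median difference was 1.61 for the atrial list, 1.34 for mesothelium, 0.60 for fibroblasts and 0.47 for collagens and matrix, each above its value without it. The ratio was 1.49 to 2.04 in the before-AAC hearts and 1.04 to 1.22 in the others. Since it varied with treatment and with the split, these values do not separate RNA integrity from either.

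**Figure D2:**
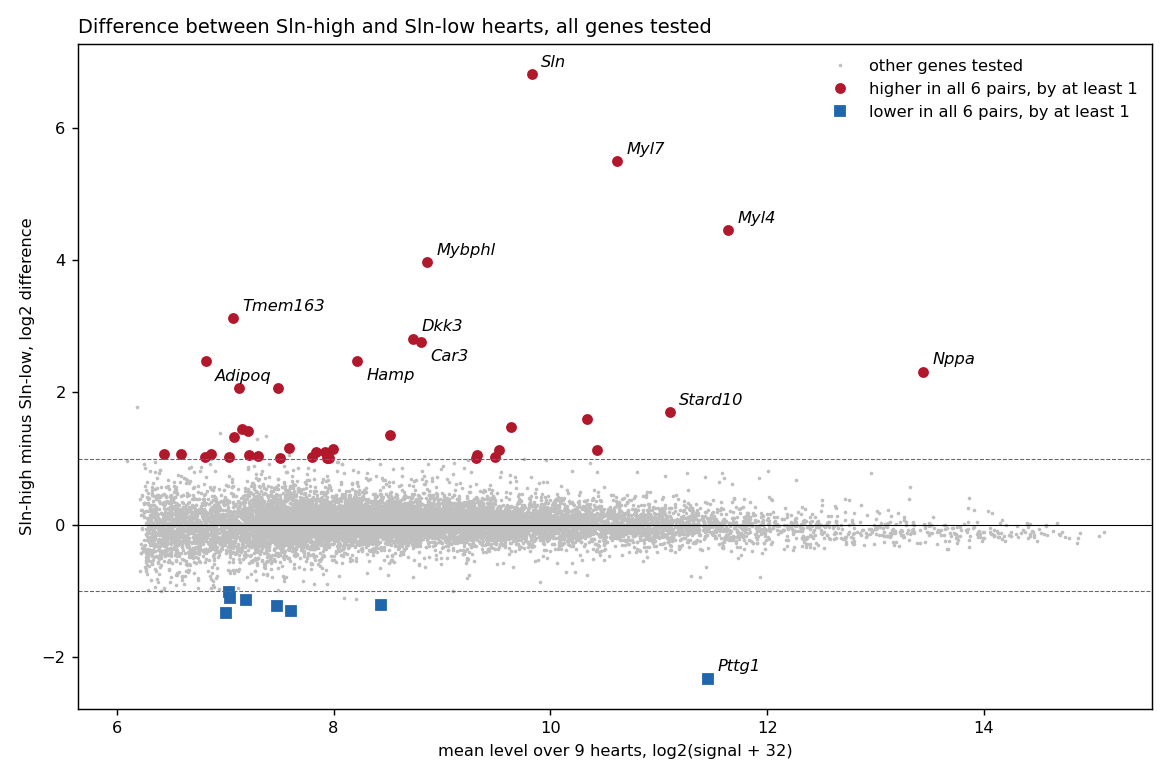
Difference between Sln-high and Sln-low hearts (log2, treatment group as covariate) against the mean level over the 9 hearts, 1 point per gene for 12834 genes; red circles mark the 39 genes higher in all 6 pairs by at least 1 and blue squares the 8 lower. Sln, Myl7, Myl4 and Mybphl stand furthest above 0, and Pttg1 stands furthest below.

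Other genes known from atrial muscle differed as well. Mybphl, a myosin-binding protein of atrial muscle measured on array 430B, was 6.90, 11.22 and 9.61 before AAC, 11.61, 7.34 and 7.10 at 4 weeks, and 11.34, 7.05 and 7.62 with Akt on. Its difference was 3.97 ± 0.29, and the intermediate hearts, at 7.34 and 7.62, lay close to the other Sln-low hearts. Nppa was 11.87, 15.10 and 14.55, then 14.67, 11.66 and 13.06, and 14.47, 12.35 and 13.20. Nppa differed by 2.32 ± 0.31, with the Sln-high hearts between 14.47 and 15.10 and the others between 11.66 and 13.20. Its relative Nppb, the brain natriuretic peptide of loaded myocardium, differed by -0.08 ± 0.18 and was lower in 4 of 6 pairs.

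Dkk3, a secreted protein of the Dickkopf family, was 9.20 to 11.14 in the Sln-high hearts and 6.29 to 8.03 in the others. Its second probe set also went the same way in all 6 pairs. Stard10, a phospholipid transfer protein, differed by 1.70 ± 0.24. Fgf12, an intracellular regulator of sodium channels, differed by 2.07 ± 0.33, with all 3 of its probe sets above the filter higher in all 6 pairs. Myl9, a regulatory light chain of smooth muscle, differed by 1.59 ± 0.25. Of 18 atrial muscle markers listed, 16 were measured, and Gja5 and Cacna2d2 lay below the signal filter. Of the 16, 8 met the rule and 11 were higher in all 6 pairs, with a list median of 1.35. These counts include Sln, which set the split, and Myl7 and Myl4, which mark it. Of the 13 other markers 5 met the rule, 8 were higher in all 6 pairs and 1 was lower, with a median of 0.92, beside 6.85% of all genes higher in all pairs. The summed signal of these 13 was 39301 to 58409 in the Sln-high hearts and 16238 to 24759 in the Sln-low hearts. With the 3 transcripts of the split it was 64862 to 114617 and 16981 to 25034.

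Not every gene on the atrial list followed. Kcna5, a voltage-gated potassium channel, was lower in all 6 pairs, by 0.56 on the log2 scale (-0.56 ± 0.19). Whether Kcna5 marks atrial muscle in the mouse was not tested. Kcnj3 and Kcnj5, the 2 subunits of the acetylcholine-gated potassium channel, differed by 0.20 ± 0.15 and 0.40 ± 0.15. Kcnj3 probe sets of array 430B differed by 0.71 and 0.88, each higher in 5 of 6 pairs. Bmp10, an atrial growth factor, differed by 0.20 ± 0.27. Gnao1, the G protein subunit Gαo, was higher in all 6 pairs by 0.99 ± 0.16, and its 2 dimmer probe sets differed by 0.03 and 0.04.

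Among 30 cardiac and chamber transcription factors, 5 were higher in all 6 pairs and none was lower, with a list median of 0.05, beside 6.85% of all genes higher and 5.15% lower. Tbx5, the T-box factor of atria and conduction tissue, was 9.04, 9.09, 8.999 and 10.05 in the Sln-high hearts and 8.02 to 8.97 in the others (0.92 ± 0.22). The sets thus adjoin without overlap, and the second Tbx5 probe set differed by 0.44 and was higher in 5 of 6 pairs. Shox2, a factor of the sinus node and sinus venosus, differed by 0.80 ± 0.23 and Meis1, a homeobox factor, by 0.44 ± 0.22. The others were Mef2c (0.20) and Mef2d (0.14), muscle factors of the MADS family. The ventricular factors Irx4 and Hand1 differed by -0.11 and 0.03, and the pan-cardiac Nkx2-5 and Gata4 by -0.18 and -0.07. Of 11 measured sinoatrial and conduction markers, 2 (Shox2, and the T-type calcium channel Cacna1g at 0.44 ± 0.17) were higher in all 6 pairs, beside 6.85% of all genes, and the list median was 0.13. Hcn4 and Isl1, markers of the node, lay below the signal filter.

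Ventricular transcripts differed by small amounts. Myl2 was 15.14, 15.16 and 14.96 before AAC, 14.77, 14.84 and 14.78 at 4 weeks, and 14.61, 14.98 and 14.75 with Akt on, a difference of -0.12 ± 0.08. Myl3 differed by -0.18 ± 0.09 and was lower in 4 of 6 pairs. Of 13 measured ventricular markers 2 were lower in all 6 pairs, against 5.15% of all genes. These were Pln (-0.25 ± 0.07) and Fhl2, a LIM protein of ventricular muscle (-0.37 ± 0.10), and the list median was -0.11. The summed signal of the 13 was lower in the Sln-high heart in all 6 pairs. It was 96781 to 134945 in Sln-high and 111566 to 150467 in Sln-low hearts, so the ranges overlap. The calcium pump Atp2a2 itself differed by -0.01 ± 0.07 and α-myosin heavy chain Myh6, expressed in both chambers, by 0.02 ± 0.08.

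Some genes of energy metabolism were slightly lower in the Sln-high hearts. Of 63 measured genes of oxidative phosphorylation, 20 were lower in all 6 pairs, none was higher and 43 had mixed pairs, beside 5.15% of all genes lower and 6.85% higher. A difference below 0 was found in 61 of the 63. The list median was -0.15, and -0.07 after quantile scaling of the arrays. Sdhd, a membrane subunit of complex II, was 12.89 to 13.09 in the Sln-high hearts and 13.28 to 13.41 in the others, a difference of -0.33 ± 0.08 with no overlap. Of 27 genes of fatty acid uptake and oxidation 6 were lower in all 6 pairs, none was higher and 21 had mixed pairs. This stands beside the same 5.15% of all genes lower and 6.85% higher. The list median was -0.13 (-0.08 after quantile scaling). Acadm, the medium-chain acyl-CoA dehydrogenase, was 13.43 to 13.61 against 13.73 to 13.85 (-0.24 ± 0.07), and Etfa, which takes its electrons, differed by -0.24 ± 0.08. Of 17 glycolysis genes, 3 were lower in all 6 pairs and none was higher, beside the same shares of all genes. The other 14 had mixed pairs, and the list median was -0.07.

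Genes of tissues that lie on or beside the atria were also among the 39. Adipoq, the fat cell hormone adiponectin, was 5.95, 7.91 and 6.97 before AAC, 8.94, 5.32 and 6.26 at 4 weeks, and 8.53, 5.37 and 6.12 with Akt on, a difference of 2.47 ± 0.37. Car3, the carbonic anhydrase of fat and slow muscle, was 9.60 to 10.89 against 6.78 to 8.43 (2.77 ± 0.30). Another Car3 probe set above the filter was higher in all 6 pairs, and a further probe set in 4 of 6. In both genes the 4-week replicate 1 was the highest of all hearts. The other 6 of the 8 measured adipocyte markers had mixed pairs: Fabp4 differed by -0.09, Retn by 0.04 and Lipe by 0.02, and the list median was 0.03. The summed adipocyte signal was 20943 to 26241 in Sln-high and 21785 to 25903 in Sln-low hearts, while Plin1, Cfd, Lep, Cidec and Pparg lay below the filter. The part of fat tissue in the 39 genes was not tested. None of 5 brown adipocyte markers had all pairs one way, and Ucp1 lay below the filter.

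Some mesothelial and epicardial markers were higher in the Sln-high hearts. Of 12 listed, 7 were measured and 5 lay below the filter. Of the 7, 4 were higher in all 6 pairs, beside 6.85% of all genes, and Tbx18, Upk1b and Krt8 had mixed pairs. The median of the 7 was 0.85. Gpm6a, a membrane glycoprotein, was 7.50 to 8.28 against 5.61 to 7.19 (1.45 ± 0.29). Upk3b, an uroplakin of mesothelium, differed by 0.99 ± 0.28, the leucine-rich repeat protein Lrrn4 by 0.85 ± 0.23 and keratin Krt18 by 1.00 ± 0.23. The summed signal was 1069 to 2046 in Sln-high and 797 to 1069 in Sln-low hearts, whose ranges meet, and Wt1 and Msln lay below the filter. The median was 0.43 without 4-week replicate 1, 0.26 when 40% of the probe sets were kept and 0.18 with no filter.

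Endothelium gave a mixed picture. Vwf, the von Willebrand factor, was 9.85 to 10.37 in Sln-high and 8.52 to 9.71 in Sln-low hearts (1.03 ± 0.17), and Plvap, a protein of endothelial diaphragms, differed by 0.84 ± 0.14. Pecam1, Kdr and Tie1, which mark endothelium in general, differed by -0.08, -0.10 and -0.12, and Cdh5 was lower in all 6 pairs (-0.22 ± 0.11). Tek, on the same list, was higher in all 6 pairs (0.11 ± 0.10), as was Cdh11 (0.56 ± 0.18). The 13 endothelial and endocardial markers had 4 higher and 1 lower in all 6 pairs, beside 6.85% and 5.15% of all genes. Their median was 0.11. Of 12 fibroblast markers, 3 were higher in all 6 pairs (Dpt at 0.72, Tcf21 at 0.45 and Pdgfra at 0.44), beside 6.85% of all genes, and the median was 0.39, or 0.17 without 4-week replicate 1. Of 35 collagen and matrix genes, 2 were higher in all 6 pairs (Fbln1 at 0.93 and Col18a1 at 0.68), a share below the 6.85% of all genes, with a median of 0.23, or 0.07 without 4-week replicate 1. The 11 measured smooth muscle genes went both ways, with 2 higher and 3 lower in all 6 pairs, beside 6.85% and 5.15% of all genes. Higher were the calponin-related Tagln at 0.79 and Myh11 at 0.38. Lower were the actin-binding Synpo2 (-0.81 ± 0.16), Rgs5 (-0.27) and Pln (-0.25), which is also on the ventricular list. A difference above 0 was found in 7, including Cnn1 at 1.05 and Acta2 at 0.70, and the list median was 0.18. Of 11 macrophage markers 2 were higher in all 6 pairs (Csf1r at 0.33 and Mrc1 at 0.29), beside the same 6.85%. Of 7 valve markers 1, the cartilage proteoglycan Acan, was lower in all 6 pairs, beside 5.15% of all genes, and none was higher. The valve median was 0.38. Nerve (7 measured), lymphocyte (4) and skeletal muscle (3) markers had no member with all pairs one way.

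**Figure D3:**
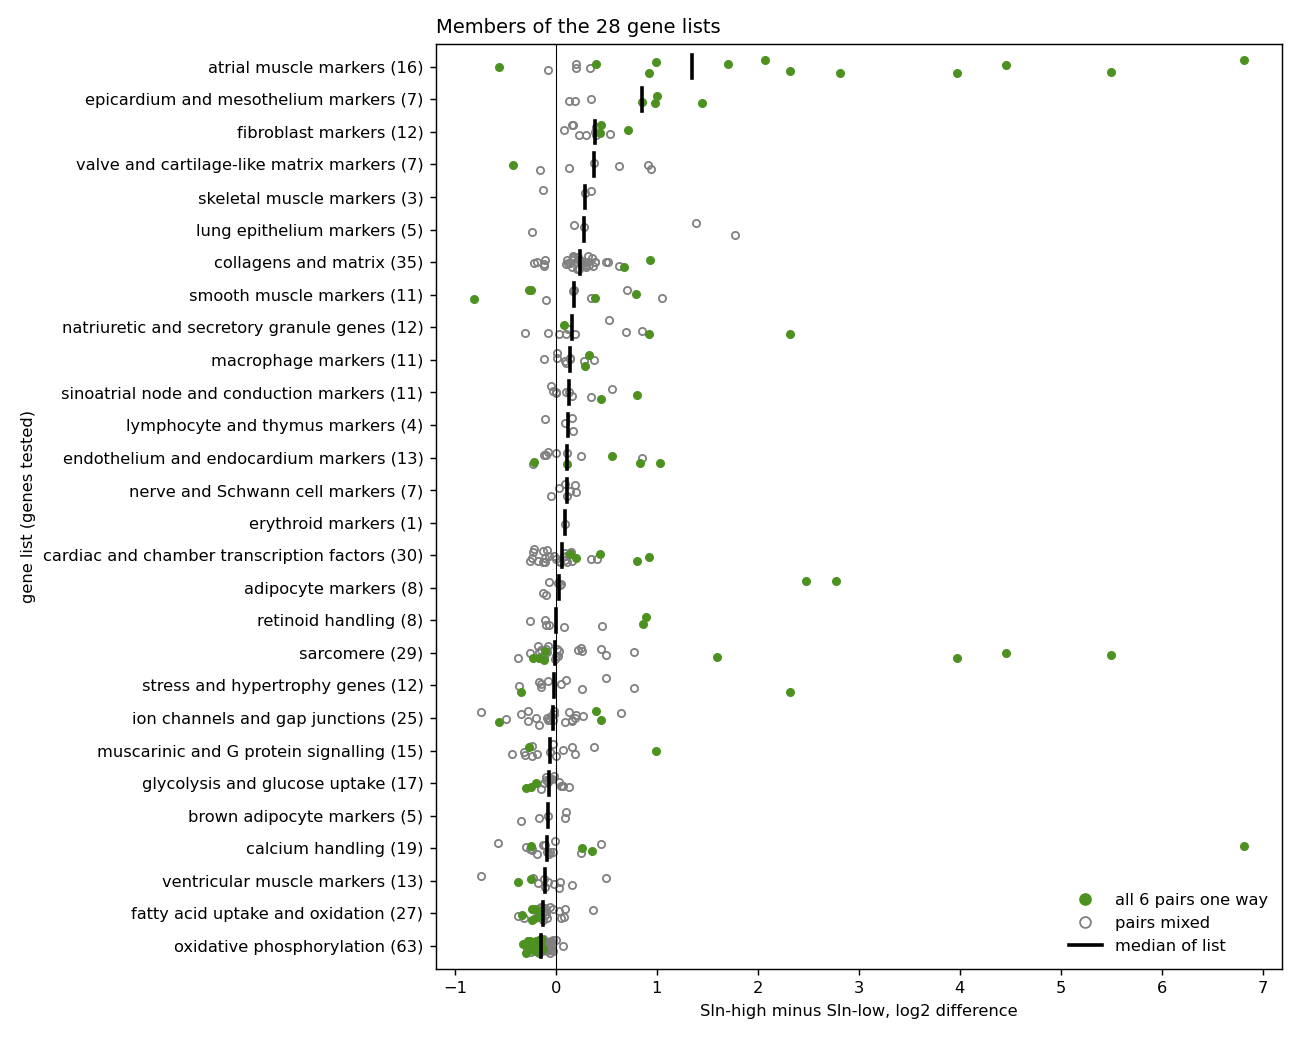
Sln-high minus Sln-low difference (log2) of each measured member of the 28 gene lists, with the number measured in parentheses; filled green points have all 6 within-group pairs one way, open points do not, and the black bar is the list median. The atrial list has the highest median at 1.35 and oxidative phosphorylation the lowest at -0.15.

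Of the 39 higher genes, 14 stood on a list and 25 on none. Tmem163, a zinc-binding membrane protein, was 5.51, 9.13 and 7.93 before AAC, 8.22, 5.39 and 5.48 at 4 weeks, and 9.71, 6.17 and 6.11 with Akt on, a difference of 3.13 ± 0.27. Hamp, the iron hormone hepcidin, was 8.72 to 10.21 against 6.74 to 7.45 (2.48 ± 0.29), and its second probe set went the same way in all 6 pairs. Mlana, a melanocyte and melanosome protein, was 7.51 to 9.20 against 6.05 to 7.01 (2.07 ± 0.29). Scd1, which desaturates fatty acids, differed by 1.47 ± 0.32 and was highest in 4-week replicate 1. Genes below the 15 largest, named after their values were seen, included the mast cell chymase Cma1 (1.05 ± 0.22), the calcium-stimulated adenylyl cyclase Adcy1 (1.10 ± 0.17), the integrin Itga8 (1.01 ± 0.19) and the immediate early factor Fos (1.03 ± 0.34). For 15 of the 47 genes, other probe sets passed the filter; 9 of these 19 probe sets went the same way in all 6 pairs. A dimmer Myl4 probe set was among the 10 that did not.

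A few secreted and retinoid-handling genes differed by smaller amounts. The 12 measured natriuretic and secretory granule genes had 3 (Nppa, Adm and Cpe) higher in all 6 pairs and none lower. Over all genes the shares were 6.85% and 5.15%. The list median was 0.16, with Furin at 0.03 and Vamp1 at -0.30. Adm, the vasodilator adrenomedullin, was higher in all 6 pairs by 0.92 ± 0.21. Corin, the protease that cuts pro-ANP, differed by 0.70 ± 0.35 and the granule amidating enzyme Pam by 0.53 ± 0.25, each higher in 5 of 6 pairs. Rbp4, the plasma retinol carrier, was 7.76 to 8.32 in Sln-high and 6.83 to 7.41 in Sln-low hearts (0.89 ± 0.19), and the retinoid-responsive chemerin gene Rarres2 differed by 0.86 ± 0.23. The other 6 of 8 measured retinoid genes had mixed pairs, while 6.85% of all genes were higher in all 6 pairs. The retinoid median was 0.004, with 4 genes above 0 and 4 below.

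One heart held a signal of its own. Scgb1a1, the secretoglobin of airway club cells, had a deposited signal of 1720 in 4-week replicate 1 and 8.7 to 27.8 in the other 8 hearts. Scgb3a2, a second airway secretoglobin, was 10.09 on the log2 scale in that heart and 5.76 to 7.78 elsewhere. The surfactant gene Sftpc differed by 0.28 ± 0.25 and Sftpb by 0.18 ± 0.21, and the summed lung list was 3408 in that heart and 502 to 719 in the others. The part of airway RNA in the values of 4-week replicate 1 was not tested.

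**Figure D4:**
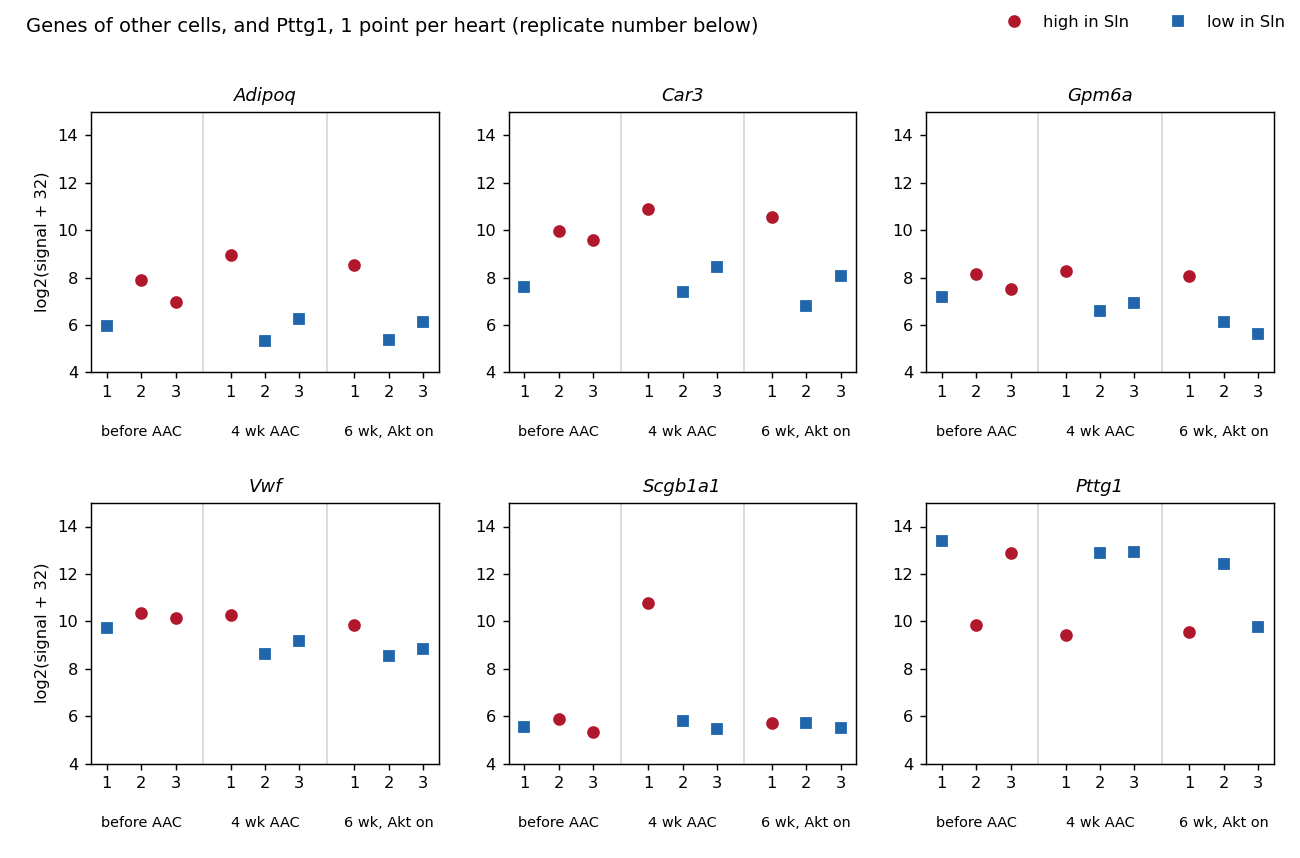
Levels of Adipoq, Car3, Gpm6a, Vwf, Scgb1a1 and Pttg1 in each of the 9 hearts, as log2(signal + 32), with Sln-high hearts as red circles, Sln-low hearts as blue squares and the replicate number under each point. The red points lie above the blue ones in the first 4 panels, Scgb1a1 is high in 4-week replicate 1 alone at 10.77, and the 2 sets overlap in Pttg1.

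Few genes were lower by the rule. Pttg1, the securin that holds back sister chromatid separation, was 13.37, 9.85 and 12.88 before AAC, 9.44, 12.87 and 12.94 at 4 weeks, and 9.57, 12.40 and 9.76 with Akt on. Its values lay at either of 2 levels, 12.40 to 13.37 in 5 hearts and 9.44 to 9.85 in 4, and 1 heart of each set lay at the other set's level. The difference was -2.33 ± 0.65. A second Pttg1 probe set differed by -1.82, lower in 5 of 6 pairs. Olfr112, an olfactory receptor, differed by -1.34 ± 0.22, keratin Krt78 by -1.31 ± 0.28, the glycogen-binding Stbd1 by -1.24 ± 0.36, the tumour suppressor Rassf1 by -1.21 ± 0.22 and the ubiquitin ligase Hecw1 by -1.02 ± 0.28. A second Hecw1 probe set above the filter went the other way, at 0.22 and higher in 5 of 6 pairs. The other Rassf1 probe sets above the filter were each higher in 3 and lower in 3 of 6 pairs. The 2 others were Gm32688 and Gm33738. Akt1 was also lower in all 6 pairs, by 0.72 on the log2 scale (-0.72 ± 0.17).

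The Sln-high minus Sln-low difference was then compared between the 3 treatment groups. For Sln it was 7.72 before AAC, 6.62 at 4 weeks and 6.11 with Akt on, for Mybphl 3.52, 4.39 and 4.00, and for Nppa 2.95, 2.31 and 1.69. Scd1 differed by 0.42, 2.76 and 1.23. By the limma moderated F test of the interaction, with 3 residual degrees of freedom, 0 genes (0%) passed an adjusted p of 0.05. The smallest adjusted p was 0.37, 832 genes had an unadjusted p below 0.05, and over the other settings the smallest adjusted p ran from 0.0565 to 0.62. Each treatment group has 1 heart on one side of the split, so the lone heart is assumed to vary like the others. The split was also made from Sln on the same arrays, so the values of this test are a description. The count of 0 does not show that the differences are equal between groups. The smallest p over all genes belonged to Parp3, a DNA repair enzyme, whose difference was 3.30 at 4 weeks, -0.51 before AAC and 0.03 with Akt on (adjusted p = 0.37, limma).

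The treatment comparisons do not use Sln to form their groups and can be tested. Since 2 of 3 before-AAC hearts were Sln-high and 1 of 3 in each other group, an Sln-high minus Sln-low difference enters the comparisons with before-AAC hearts in proportion to this imbalance, and cancels between the Akt-on and 4-week groups. Adding the Sln split as a term to the limma fit changed the estimate for Myl7 at 4 weeks against before AAC from -1.90 ± 2.00 to -0.07 ± 0.88 and that for Nppa from -0.71 ± 0.84 to 0.06 ± 0.37. Myl4 went from -1.38 ± 1.60 to 0.10 ± 0.66. None of these 3 passed the test in either fit, and the sign of the small estimates with the term depends on the setting.

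The estimates of contractile genes moved less. Acta1, the skeletal α-actin of the loaded heart, rose by 1.42 ± 0.23 at 4 weeks with the term (limma adjusted p = 0.0144) and by 1.33 ± 0.24 without it. Pln fell by 0.43 with the term (-0.43 ± 0.09, limma adjusted p = 0.0276), and its estimate without the term was -0.35 ± 0.12 (limma adjusted p = 0.11). Myl3 fell by 0.51 (-0.51 ± 0.10, limma adjusted p = 0.0263) and Atp2a2 by 0.44 (-0.44 ± 0.09, limma adjusted p = 0.0262). After quantile scaling the Atp2a2 estimate was 0.10 and neither Pln nor Myl3 passed. Leaving out before-AAC replicate 1, 4-week replicate 1 or the 2 intermediate hearts ended all 4 of these calls, and leaving out before-AAC replicate 2 or 3 or 4-week replicate 2 ended 3 of them. With Akt on, Nppb fell by 0.99 against 4 weeks (-0.99 ± 0.21, limma adjusted p = 0.0235), a call lost without 4-week replicate 2 or 3, Akt-on replicate 1 or the 2 intermediate hearts. Akt1 rose by 2.36 with a standard error of 0.19 with the term and 0.30 without it, and its limma adjusted p was 0.000235 and 0.00226.

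**Figure D5:**
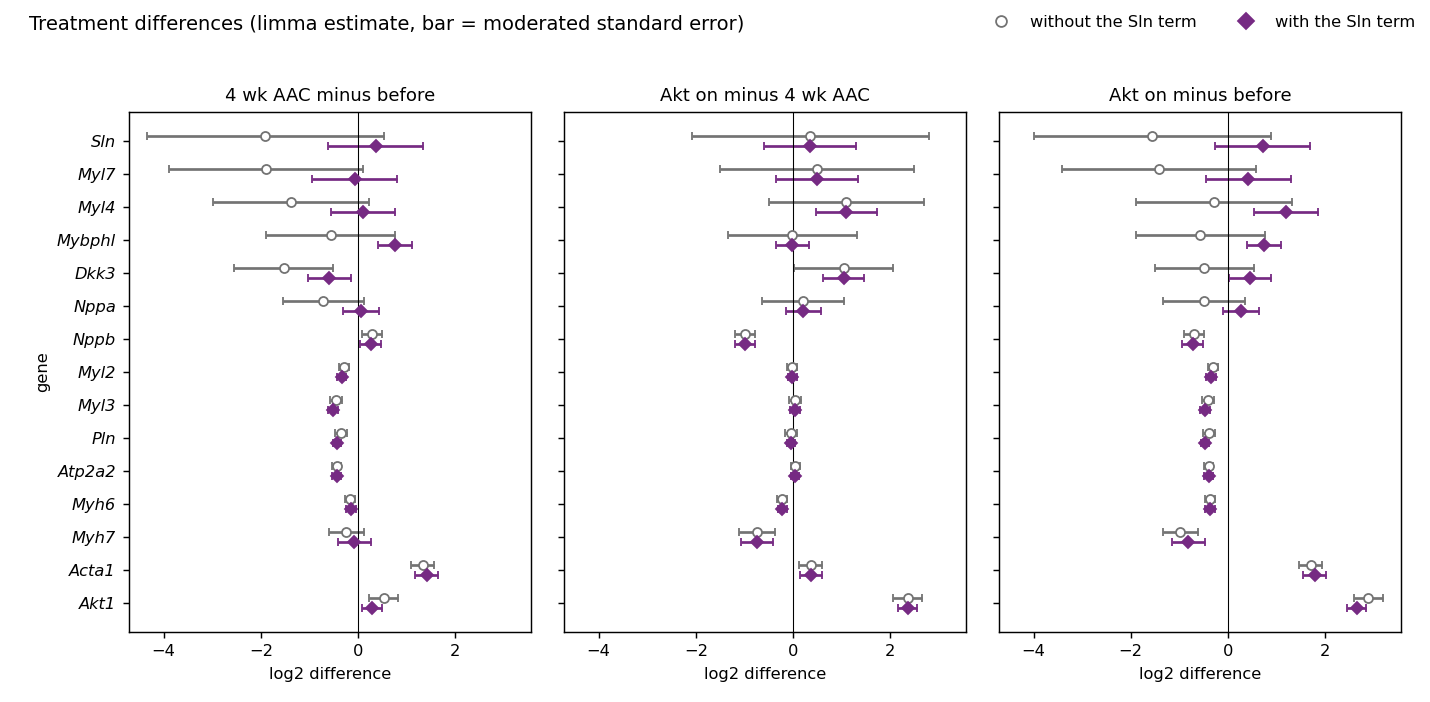
Treatment differences of 15 genes (log2, limma estimate with its moderated standard error as bars) in the 3 comparisons, without the Sln term (open grey circles) and with it (purple diamonds). The atrial genes at the top have wide bars without the term and shift to the right with it in both comparisons against before-AAC hearts, and the estimates of Atp2a2 and Myh6 nearly coincide.

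Over all genes, 559 (4.36%) passed between 4 weeks and before AAC with the term and 661 without it, of which 490 were shared (87.7% of the first and 74.1% of the second). Between Akt on and 4 weeks, 674 (5.25%) passed with the term and 557 without, with 555 shared (82.3% and 99.6%). Between Akt on and before AAC, 1942 (15.1%) passed with the term and 1940 without, with 1700 shared (87.5% and 87.6%). The first count rests on single hearts: it was 1 without before-AAC replicate 1, 1 without 4-week replicate 1, and 97 without the 2 intermediate hearts. The third was 681 without before-AAC replicate 1, and the second was 273 without 4-week replicate 3.

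Of the 47 genes, 2, 3 and 7 passed in the 3 comparisons with the term, shares near the 4.36%, 5.25% and 15.1% of all genes. Without the term 0, 3 and 3 passed, beside 5.15%, 4.34% and 15.1% of all genes. The 47 were chosen by their difference across the split, so a term for the split lowers their residual spread by construction. Their counts and calls with the term are a description and not support. Olfm1, a secreted olfactomedin, rose by 2.64 between 4 weeks and Akt on (limma adjusted p = 0.0128) and Stbd1 by 2.71 (limma adjusted p = 0.00534). Baiap2l1, an actin-bundling adaptor, fell by 1.86 (limma adjusted p = 0.00486). All 3 passed without the term as well, and Olfm1 lost its call without 4-week replicate 3 or the 2 intermediate hearts. Krt18 rose by 1.16 between before AAC and Akt on with the term (limma adjusted p = 0.0169) and did not pass without it (limma adjusted p = 0.214) or without Akt-on replicate 1. Genes of oxidative phosphorylation that fell numbered 21 of 63 at 4 weeks with the term and 15 without, beside 2.13% and 2.42% of all genes. With Akt on against before AAC they numbered 37 and 25, beside 7.69% and 7.79% of all genes, and none rose in either comparison. After quantile scaling these counts with the term were 1 and 13, and 1 gene rose in each comparison. Of 35 collagen and matrix genes, 21 rose between 4 weeks and Akt on with the term and 15 without it, beside 2.34% and 1.85% of all genes, and 21 after quantile scaling with the term.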

How the data were processed

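Per the labels, the authors used Ultraspec-II for total RNA and biotin as the label, and the submitters' processing notes name MAS5 (version not given). The deposited values are intensity, 1 signal per probe set on a linear scale, and the authors had scaled each array. Here the arrays of a chip were scaled to 1 common trimmed mean (2% off each end) and log2(signal + 32) was taken, which understates differences of dim probe sets. From 45265 probe sets, 128 controls, 936 with several gene symbols and 9160 with none were left out. The brightest 60% of each chip were kept. The probe set of highest mean was used for a gene, from 430A where possible, leaving 12834 genes. Symbols came from GEO's platform annotation; 34863 of 35041 probe sets with 1 symbol matched RefSeq.

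limma 3.58.1 in R 4.3.3 (lmFit, eBayes with a trend) was fitted per chip with group and Sln split, and Benjamini-Hochberg adjustment ran over both chips at 0.05, two-sided. The fits were tested on simulated data. A gene met the rule where all 6 within-group pairs went one way and the difference was at least 1. Named genes were the 15 largest differences each way (clone and Gm names left out), up to 4 per list with all pairs one way, 13 always given, and 8 with the smallest interaction p. The members and the gene lists were chosen with earlier results of these data known. Whether replicates were separate animals is not given, so p-values measure the spread between these samples; the number of arrays limits the precision. Alternatives covered scaling, pseudocount, filter, probe set choice, the split, the replicate block and leaving out each heart.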

Additional observations from a re-analysis of the deposited data

Results flagged for a closer look

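In the Sln-high set (4 hearts) or the Sln-low set (5 hearts), 1 heart lay far from the rest for 13 of 170 combinations of gene and set examined, by Dixon's criterion at 95%; chance alone flags about 1 in 20. All values are log2(signal + 32).

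Among the atrial genes, Myl7 was 12.84 in before-AAC replicate 3 against 13.85 to 13.99 in the other Sln-high hearts, and Stard10 was 11.15 in Akt-on replicate 3 against 10.07 to 10.34 in the other Sln-low hearts. Tbx5 was 10.05 in Akt-on replicate 1 against 8.999 to 9.09 in the other Sln-high hearts. Pttg1 stood out in both sets. It was 12.88 in before-AAC replicate 3 against 9.44 to 9.85 in the other Sln-high hearts, and 9.76 in Akt-on replicate 3 against 12.40 to 13.37 in the other Sln-low hearts.

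Before-AAC replicate 1, the only Sln-low heart without AAC, stood out in 4 genes: Pln at 14.92 against 14.38 to 14.50, Cpe at 10.80 against 11.39 to 11.61, Zfat at 5.91 against 7.82 to 8.38 and Exd2 at 6.69 against 7.93 to 8.25. In the Sln-low Akt-on replicate 2, Tcf21 was 9.29 against 8.85 to 8.93 and Mrc1 was 9.50 against 9.15 to 9.23. Gpaa1 was 7.52 in Akt-on replicate 1 against 10.33 to 10.79 in the other Sln-high hearts. Scgb1a1 was 10.77 in 4-week replicate 1 against 5.35 to 5.90 in the other Sln-high hearts.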

How the results depend on the processing

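The 39 higher genes became 22 with the brightest 40% of probe sets, with the Sln level as a number or with a pseudocount of 64, 24 with the split at the widest gap of Myl4 and 192 at a limit of 0.5. The 8 lower genes became 5 with a pseudocount of 64 or the Sln level as a number, 28 with a pseudocount of 16, 35 with 430B on the scale of 430A and 126 at a limit of 0.5. Some settings were chosen after seeing the data: the β-actin ratio as a covariate gave 63 and 38, and leaving out the intermediate hearts gave 52 and 22. Leaving out 1 heart gave 34 to 65 and 8 to 39, with 4 or 5 pairs in place of 6. Quantile scaling kept 43 of the 47 genes.

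The 559 genes between 4 weeks and before AAC became 196 with no filter, 193 with no variance trend, 160 with the replicate block, 97 without the intermediate hearts and 1 to 871 without 1 heart. The 674 between Akt on and 4 weeks became 421 with no filter, 409 with the block, 265 without the intermediate hearts and 273 to 520 without 1 heart. The 1942 between Akt on and before AAC became 1220 without the intermediate hearts and 681 to 1878 without 1 heart. Deviations of hearts with the same replicate number correlated above 0.1 in 1 of 9 cases, and those with other numbers in 5 of 18. Hearts on the same side of the split did so in 6 of 13. Whether the replicate number marks a batch was not tested. The interaction count stayed 0.

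Small estimates changed sign. For 4 weeks against before AAC, Myl7 was 0.13 after quantile scaling, 0.025 with a pseudocount of 64 and -0.79 to 0.81 without 1 heart. Myl4 was -0.37 with all probe sets averaged, -0.14 with Sln as a number, -1.38 without the term, -0.26 without the intermediate hearts and -0.34 to 0.67 without 1 heart. Nppa was -0.15 with Sln as a number, -0.71 without the term and -0.36 to 0.38 without 1 heart. After quantile scaling Atp2a2 was 0.096 in this comparison and 0.016 with Akt on against before AAC, where Myl2 was 0.069. The causes were not tested. For single genes and lists under alternatives, 2350 values were counted as unchanged, 40 moved by more than their spread and 79 lost their call. The 21 counted as changed in sign are treatment estimates and include those above. Small Sln-high minus Sln-low differences could also change sign while counted as unchanged. Without 1 heart, Nppb ran from -0.22 to 0.05, Myh7 from -0.014 to 0.92 and Acta1 from -0.022 to 0.60.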
